A study of Mus musculus with 2 samples.

Results

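Classical monocytes in B16F10 tumours were taken as barcodes that carried at least 6 UMIs of Vcan, Hp and Chil3 together and stayed under 8 exclusion limits. Vcan encodes the matrix proteoglycan versican, Hp the haemoglobin-binding protein haptoglobin, and Chil3 the chitinase-like protein Ym1. The limits were fewer than 3 UMIs of C1qa, C1qb and C1qc, fewer than 2 of Treml4 and Ace, fewer than 2 of Csf3r and Cxcr2, fewer than 10 of Cxcl1, Cxcl3 and Il1a, fewer than 10 of Ifit2, Ifit3, Rsad2 and Cmpk2, fewer than 3 of Egln3, Bnip3 and Ero1l, 0 of Cd3d, Cd3e, Cd3g and Ncr1, and fewer than 3 of Xcr1, Clec9a, Ccr7, Siglech and Cd209a. They keep out macrophages, non-classical monocytes, neutrophils, cells strong in inflammatory, interferon or low-oxygen genes, lymphocytes and dendritic cells. In all, 1085 of 22699 kept barcodes passed, 420 of 8937 in the control and 665 of 13762 in the IL4 library.

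Classical monocytes leave the bone marrow under the guidance of the chemokine receptor CCR2 and carry the surface protein Ly6C at a high level in the mouse. In tissues and tumours they can remain monocytes, gain MHC class II, or mature into macrophages and lose the genes of the circulating cell on the way. They are counted among the myeloid cells that can restrain or help T cells in tumours.

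CD45+ cells, the leukocytes, had been sorted from subcutaneous tumours of the mouse melanoma line B16F10 and put through 10x Genomics single-cell RNA sequencing, with 1 library per group. Both libraries are labelled WT. Per the sample characteristics, the control mice had received bone-marrow-derived macrophages (BMDMs) without treatment and the IL4 mice BMDMs treated with interleukin 4, the cytokine of alternative macrophage activation. The protocol field, by contrast, names IL4-treated BMDMs for each of the libraries, and these fields have not been reconciled here. How many mice were used, their age and the time after transfer are not stated in those sources. Transferred and host cells cannot be told apart in these counts.

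The deposited counts summed to 95499107 UMIs for the control and to 133151428 UMIs for IL4. The monocytes held 3932800 and 5336366 UMIs, with a median of 8984 and 7857 UMIs and of 2766 and 2562 genes per barcode. Of their UMIs, a median of 1.40% and 1.11% came from mitochondrial genes. Among monocytes with UMIs of either Xist or Y-linked genes but not of both, 35.5% (128 of 361) were Y-only in the control and 9.42% (55 of 584) in the IL4 library, so cells of both sexes were present in unequal parts. Main results are therefore also given within Xist-only and Y-only barcodes. No barcode string in monocytes occurred in both libraries, against 23 shared strings among all barcodes. With 1 library per group no test of the treatment was possible. Intervals are exact 95% intervals that cover counting error only, and a gene was called higher or lower at a ratio of at least 1.5 on the scale of CPM plus 1, where CPM is a gene's UMIs per 1000000 UMIs of the class.

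The gate on the positive genes was passed by 1913 control and 2497 IL4 barcodes, 21.4% and 18.1% of those kept. Of these, 22.0% and 26.6% also passed every exclusion limit. The limit on Egln3, Bnip3 and Ero1l, genes induced by low oxygen, alone removed 226 control and 141 IL4 barcodes, which was 11.8% and 5.65% of those past the positive gate. The limit on Cxcl1, Cxcl3 and Il1a alone removed 1.93% and 3.68%, and that on Ifit2, Ifit3, Rsad2 and Cmpk2 alone removed 1.73% and 3.84%. Barcodes over the low-oxygen limit were thus more frequent in the control library, and those over the inflammatory and interferon limits more frequent in the IL4 library. All levels of these gene groups below are levels under a ceiling. The C1q limit, which parts monocytes from macrophages, alone removed 10.7% and 10.2%.

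**Figure D1:**
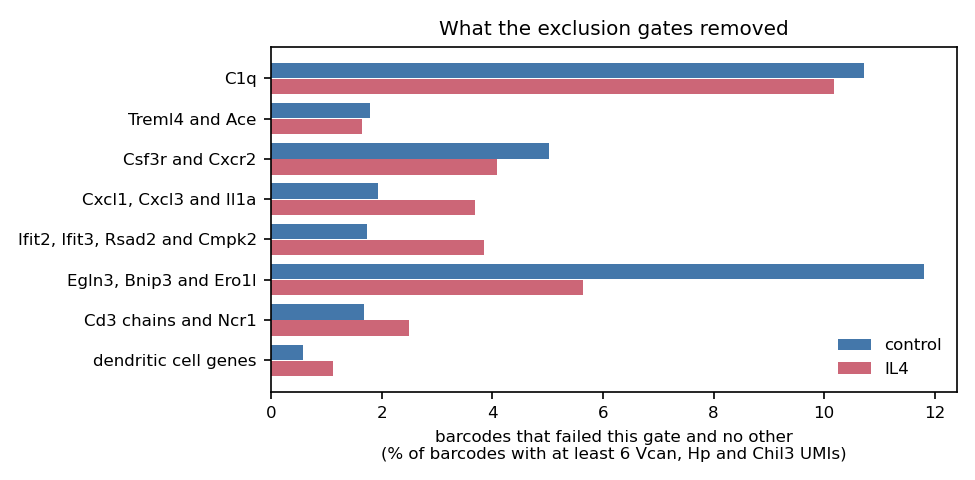
Share of barcodes with at least 6 UMIs of Vcan, Hp and Chil3 that failed 1 named exclusion limit and no other, in percent, as bars for the control (blue) and IL4 (red) libraries. The limit on Egln3, Bnip3 and Ero1l removed 11.8% in the control library and 5.65% in the IL4 one, while the limits on Cxcl1 and Ifit2 and their partners removed more in the IL4 library.

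Barcodes next to the edge of the positive gate were read as a description. The 79 control and 112 IL4 barcodes with a sum of 5 UMIs, just outside, had Ccr2 at 584 and 501 CPM and Lyz2 at 7467 and 7329 CPM. The 54 and 77 barcodes with a sum of 6, just inside, had Ccr2 at 499 and 459 CPM and Lyz2 at 7227 and 8611 CPM. The class II invariant chain gene Cd74 stood at 4626 and 3933 CPM outside and at 3780.4 and 2960.5 CPM inside. Among the members the sum had a median of 11 and 10 UMIs and reached 66 and 52.

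Members reached the gate by different genes. Vcan was present in 91.2% of control and 96.5% of IL4 monocytes, Hp in 80% of control and 81.1% of IL4 monocytes and Chil3 in 49.05% of control and 57.7% of IL4 monocytes, and all 3 genes in 35.0% and 47.5%. With every barcode thinned to 2000 UMIs, which left out 5 shallower monocytes in each library, Chil3 was detected in 25.1% (20.96 to 29.5) and 32.4% (28.9 to 36.1). T and NK barcodes were those with at least 3 UMIs of Cd3d, Cd3e, Cd3g and Ncr1 and fewer than 3 C1q UMIs. They could hold at most 1 UMI of Vcan, Hp and Chil3 together. At median depths of 8944 and 8937 UMIs, Chil3 was detected in 0% and 1.74% of them after thinning. Their gate fixed this low share in advance, so it is no independent background for Chil3. Vcan (chr13:89655312-89742509) averaged 769.9 and 887 CPM, Hp (chr8:109575128-109579172) 409.6 and 432 CPM and Chil3 (chr3:106147554-106167564) 219.9 and 260.5 CPM over control and IL4 monocytes, on GRCm38 with GENCODE vM21 annotation. Across the thinned monocytes Vcan counts correlated with Chil3 counts at Spearman's rho -0.15 in the control (415 cells) and -0.10 in the IL4 library (660 cells), values that a gate on a sum pushes below 0 by its construction and that are weak in counts this sparse.

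Markers outside the gate went with the label in their pooled levels, though not in every cell. Ly6c2, a gene for the Ly6C surface protein, stood at 259 CPM (244 to 276) in control monocytes and 409.8 CPM (393 to 427) in IL4 monocytes, against 116 and 211 CPM in all other kept barcodes. Barcodes gated as neutrophils, with no limit on Vcan, Hp and Chil3, held it at a nearby level, 249 and 316 CPM. Ly6c2 thus does not part these gated classes alone. Ccr2, the receptor that draws monocytes out of the marrow, stood at 666 and 542 CPM against 329.9 and 268 CPM. Lyz2, the lysozyme gene of myeloid cells, stood at 9953 and 10135 CPM against 3913 and 2939.7 CPM, and Plac8, a gene of undetermined molecular role that is high in Ly6C-high monocytes, at 3104 and 4176 CPM against 1610.2 and 1955 CPM. Each of these genes was higher in the monocytes than in the rest of its own library. Among the 30 classical monocyte genes, a list without the gate genes, 18 were at least 1.5-fold higher and 1 was lower than in all other barcodes in both libraries, beside 2.91% and 9.23% of all genes tested. Ly6c1, a close paralogue of Ly6c2, had 0 UMIs in monocytes of either library, which allows at most 0.763 CPM in the control library and 0.562 CPM in the IL4 one, and the way reads were shared between the paralogues in counting is not known, so the Ly6c2 level is uncertain.

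With the gate genes left out, the 15 genes at 100 CPM or more with the highest ratios of monocytes over all other kept barcodes, by the lower ratio of the libraries, were chosen by that ratio and are given as a description. They were Mgst1, Plcb1, Gsr, Ifitm6, Smpdl3a, C3, Lyz2, Slpi, Msrb1, Sirpb1c, Aldh2, Gda, Tppp3, Gas7 and Ccr2. Several handle oxidants: Mgst1 encodes a microsomal glutathione transferase, Gsr glutathione reductase, Msrb1 a methionine sulfoxide reductase and Aldh2 the mitochondrial aldehyde dehydrogenase. Mgst1 stood at 119.5 CPM (109 to 131) in control monocytes and 120.1 CPM (111 to 129.8) in IL4 monocytes, against 11.5 and 8.22 CPM in C1q macrophages. Gsr stood at 433 and 435 CPM in monocytes and 44.6 and 42.9 CPM in C1q macrophages. Other genes serve defence and signalling: C3 is the central complement component, Slpi a protease inhibitor of myeloid and epithelial cells, and Plcb1 a phospholipase downstream of G protein-coupled receptors. Plcb1 stood at 1123 and 1112 CPM, against 241 and 189 CPM in C1q macrophages, 446 and 594 CPM in non-classical monocytes and 489 and 326 CPM in neutrophils. It was the highest in classical monocytes of these 4 classes in both libraries. Gsr was shared, at 694 and 772 CPM in non-classical monocytes and 834 and 788 CPM in neutrophils, and Slpi was higher in neutrophils, at 823 and 949 CPM against 372 and 444 CPM in the monocytes.

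The classes set beside the monocytes were gated on the same counts: 32 control and 44 IL4 non-classical monocytes (at least 4 UMIs of Treml4 and Ace), 1431 and 2316 C1q macrophages (at least 10 C1q UMIs) and 241 and 108 neutrophils (at least 4 UMIs of Csf3r and Cxcr2). The macrophages also had to hold fewer than 6 UMIs of Vcan, Hp and Chil3. The non-classical monocytes and neutrophils had no limit on those 3 genes, so barcodes rich in monocyte genes could enter them. Of the 10171 genes with at least 20 UMIs in monocytes, 3.88% were at least 1.5-fold higher and 7.54% at least 1.5-fold lower than in C1q macrophages in both libraries. Among 30 classical monocyte genes, 15 were higher and 1 was lower by that measure. Among 29 macrophage maturation genes with enough UMIs of 30 listed, 0 were higher and 22 were lower, with median log2 ratios of -1.05 in the control library and -1.36 in the IL4 one. The mannose receptor gene Mrc1 stood at 155 and 131 CPM in monocytes and 427 and 338 CPM in C1q macrophages, and Apoe, the lipid carrier of mature macrophages, at 796 and 748 CPM and 1866 and 2104 CPM. Of 11 measurable MHC class II genes of 14 listed, 0 were higher and 8 lower. The gates on the C1q genes and on Vcan, Hp and Chil3 had both parted these classes. The counts therefore describe the gated cells and support nothing further.

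Against non-classical monocytes, the patrolling cells with low Ly6C, 10.8% of genes were higher and 4.55% lower in both libraries. The 30 classical monocyte genes had 8 members higher and 3 lower by that measure. The 19 measurable non-classical genes of 20 listed had 0 members higher and 13 lower, with medians of -2.45 and -1.81. Cx3cr1, the fractalkine receptor of patrolling monocytes, stood at 32.04 and 47.04 CPM in classical and 239 and 191 CPM in non-classical monocytes. Nr4a1, the nuclear receptor that the non-classical fate needs in mice, stood at 1365 and 1337 CPM and 1764 and 1982 CPM. Against neutrophils, where 7.27% of genes were higher and 7.57% lower, the classical monocyte list had 7 members higher and 3 lower. Genes known from neutrophils were also present: Cd177, a neutrophil surface protein gene, stood at 36.6 and 37.7 CPM in monocytes and 25.5 and 15.4 CPM in neutrophils, and Mmp8, neutrophil collagenase, at 31.3 and 32.98 CPM and 40.9 and 32.4 CPM. Ly6g, the defining neutrophil surface marker, had 0 UMIs in monocytes of both libraries.

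**Figure D2:**
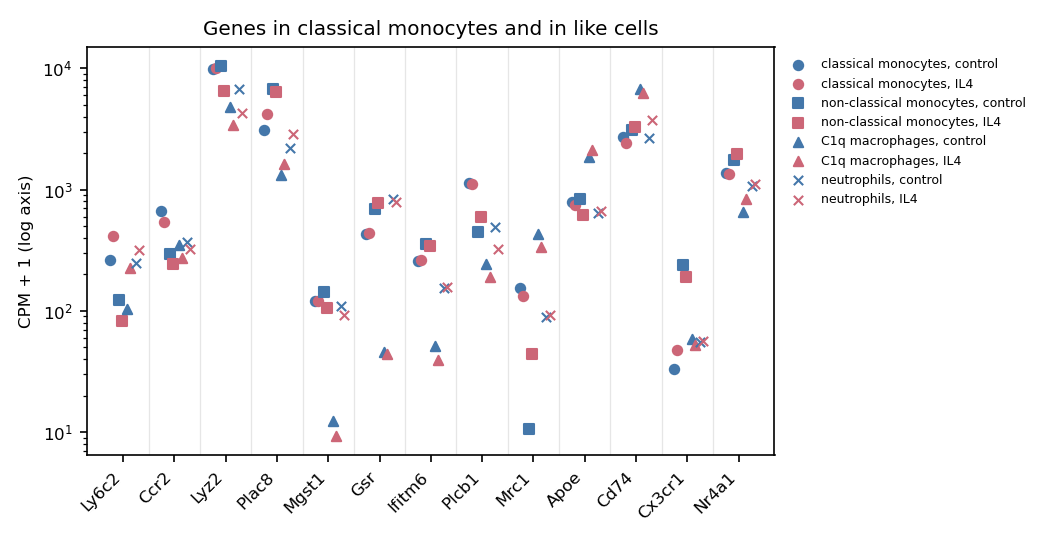
Level of named genes as CPM plus 1 on a log axis in classical monocytes (circles), non-classical monocytes (squares), C1q macrophages (triangles) and neutrophils (crosses), blue for the control and red for the IL4 library, 1 library per group. Mgst1 and Gsr are lowest in C1q macrophages, Plcb1 is highest in classical monocytes, and Cx3cr1 is highest in non-classical monocytes.

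The monocytes varied widely in MHC class II, the molecules that show peptides to CD4 T cells. The summed level of Cd74, H2-Aa, H2-Eb1 and H2-Ab1 ran from 102 to 50781 CPM in single control monocytes and from 0 to 48084 CPM in single IL4 monocytes, with medians of 2038 and 1875 CPM. The barcodes of each library were ranked by this sum and divided into quartiles. From the lowest to the highest quartile, Ly6c2 went from 445 to 137 CPM among control cells and from 498 to 353 CPM among IL4 cells. Mgst1 went from 246 to 22.5 CPM among control cells and from 223 to 41.4 CPM among IL4 cells. Ly6c2 and Mgst1 were therefore lower where class II was higher, in both libraries.

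Hp, though a gate gene, followed the same course, from 621 to 190.5 CPM among control cells and from 631 to 276 CPM among IL4 cells. Gsr went from 775 to 151 CPM among control cells and from 676 to 211 CPM among IL4 cells. Vcan and Ccr2 stayed near their level. Ccr2 went from 632 to 656 CPM among control cells and from 544 to 578 CPM among IL4 cells. Vcan went from 723 to 680.1 CPM among control cells and from 830.5 to 880.1 CPM among IL4 cells. Vcan is a gate gene, though, and Chil3 went from 372 to 122 CPM among control and from 366 to 164 CPM among IL4 cells. Where Hp and Chil3 were lower, a barcode needed more Vcan to enter. The gate thus held Vcan up, and its course is not read as a trait of the cells. Mrc1 ran the other way, from 68.8 to 243 CPM among control cells and from 59.7 to 194 CPM among IL4 cells, as did Ciita, the master activator of class II transcription, from 5.06 to 91.6 CPM among control cells and from 3.64 to 75.8 CPM among IL4 cells. Among all genes at 50 CPM or more that entered this comparison, Mmp8, Mgst1 and Smpdl3a had the most negative log2 ratios of highest over lowest quartile, by the weaker of the libraries, and Mgl2, Ciita and H2-DMb1 the most positive. Mgl2, a lectin gene of alternatively activated macrophages and some dendritic cells, had 4.23 in the control library and 4.96 in the IL4 one. The quartiles differed little in depth, with medians from 8294 to 9780 UMIs in the control and from 7531 to 8572 UMIs in the IL4 library.

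Flt3 and Cd209a, genes of the dendritic lineage, were low along this range. Flt3, the growth factor receptor of dendritic cells, went from 9.102 to 5.39 CPM among control cells and from 11.6 to 5.61 CPM among IL4 cells, and Cd209a, a marker of a class II-high monocyte and dendritic type that is also capped by a gate, from 2.02 to 5.39 CPM among control cells and from 2.91 to 7.72 CPM among IL4 cells. Between these ends Flt3 stood at 12.9 and 2.22 CPM among control cells, so it had no steady course there. At such levels no direction is read for either gene. The summed dendritic list went up, as did Mgl2 above, and went from 306 to 458 CPM in the control and from 347 to 528 CPM in the IL4 library. The share of these transcripts that came from dendritic cells or free RNA was not tested. Apoe also went up the range, from 685 to 960.5 CPM among control cells and from 575 to 1054 CPM among IL4 cells, and the interferon-induced chemokine Cxcl10 from 233 to 536 CPM among control cells and from 502 to 705 CPM among IL4 cells.

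**Figure D3:**
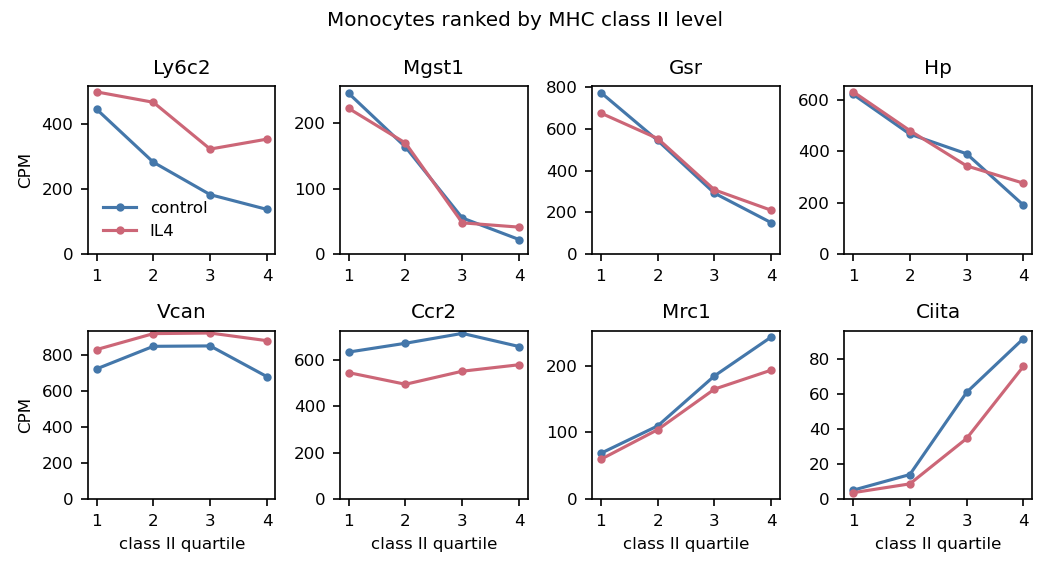
Level in CPM of 8 genes in monocytes ranked by their summed Cd74, H2-Aa, H2-Eb1 and H2-Ab1 level, from the lowest (1) to the highest (4) quartile, in the control (blue, 105 barcodes each) and IL4 library (red, 166 or 167 each). Ly6c2, Mgst1, Gsr and Hp go down, Vcan and Ccr2 stay near level, and Mrc1 and Ciita go up in both libraries. Hp and Vcan are gate genes, and the gate holds Vcan up where Hp is lower.

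The start sites of 2 genes that went down together along this range are shown because they differ in the letters of lineage factors of monocytes. PU.1 and C/EBP proteins are the transcription factors on which the monocyte lineage depends. Both windows come from the RefSeq table of build GRCm38.p6, read 5′ to 3′ on the gene's strand, with matches on either strand in capitals: GAGGAAGT for PU.1 in Ly6c2 (chr15:75111922-75112221, minus strand) and TTGCNNAA for C/EBP in Mgst1 (chr6:138140277-138140576, plus strand), where N is any base and the match lies on the opposite strand.
Ly6c2: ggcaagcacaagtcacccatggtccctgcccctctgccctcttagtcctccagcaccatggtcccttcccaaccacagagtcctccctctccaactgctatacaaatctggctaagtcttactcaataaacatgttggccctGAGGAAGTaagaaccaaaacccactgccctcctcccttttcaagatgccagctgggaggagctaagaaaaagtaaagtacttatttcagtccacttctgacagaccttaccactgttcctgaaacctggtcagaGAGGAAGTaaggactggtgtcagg
Mgst1: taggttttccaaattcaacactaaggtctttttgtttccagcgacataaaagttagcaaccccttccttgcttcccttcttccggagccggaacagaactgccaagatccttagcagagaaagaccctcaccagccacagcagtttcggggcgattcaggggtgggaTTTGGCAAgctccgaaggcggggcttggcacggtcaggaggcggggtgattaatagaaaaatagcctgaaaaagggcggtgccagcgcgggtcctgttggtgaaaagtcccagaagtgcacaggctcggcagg
The Ly6c2 window held 2 matches to the PU.1 letters and 0 to the C/EBP letters, and the Mgst1 window shown 1 match to the C/EBP letters, beginning at -83 from the start site, and 0 to the PU.1 letters. The window of a second Mgst1 start site, chr6:138141337-138141636, held 0 matches to either. Over 32851 windows of this length, 3.202% held the PU.1 letters and 10.8% the C/EBP letters. Of the 3 positive gate genes and the 15 genes with the highest ratios, 12 had windows in the table, of which 4 (C3, Gda, Mgst1 and Slpi) held the C/EBP letters and 0 the PU.1 letters, beside 12.2% and 3.69% of all genes. A match describes letters and is not a bound site.

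Ranking by Ly6c2 itself gave the reverse picture. Across its quartiles, Mgst1 was 47.6 CPM in the lowest and 239.6 CPM in the highest in the control, and 45.5 and 177 CPM in the IL4 library. Mrc1 was 186 and 91.2 CPM in the control and 174 and 78.2 CPM in the IL4 library. In the lowest quartile no barcode had a Ly6c2 UMI, so that quartile was set by detection as much as by level. Ly6a, the stem cell antigen gene that interferon induces, was 58.9 and 62.2 CPM in the control and 65.7 and 226 CPM in the IL4 library, so only the last of these 4 values stood apart.

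Monocytes took a like share of both libraries. They made up 4.70% (4.27 to 5.16) of kept control barcodes and 4.83% (4.48 to 5.20) of kept IL4 barcodes, a difference of 0.13 percentage points (-0.44 to 0.69). The difference was -0.16 points (-0.996 to 0.619) in Xist-only and -0.64 points (-2.03 to 0.89) in Y-only barcodes. Without the limits on the Cxcl1, Ifit2 and Egln3 groups, an alternative chosen after seeing the data, 775 control and 1086 IL4 barcodes passed and the difference was -0.78 points (-1.52 to -0.05). The share is a share of sorted CD45+ barcodes, so it moves with every other class. It also depends on depth, because the gates are limits on raw UMIs. Kept barcodes had a median of 9207 UMIs in the control and 8256.5 UMIs in the IL4 library.

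Between the libraries, most genes of the monocytes differed little. Of 10171 genes, 360 (3.54%) were at least 1.5-fold higher and 646 (6.35%) at least 1.5-fold lower in the IL4 library, which is 9.89% in either direction, and the median log2 ratio over all of them was -0.05. List counts below are to be set beside these shares, and a count near them is not read as a result about its list. The genes furthest up were Ccl5, Acod1, Tmtc2, Saa3, Il10, Kcnn4, Mir155hg, Tnip1, S100a8 and Marcksl1. The genes furthest down were Ccl24, Spp1, Lonrf3, Hspa1a, Lrif1, Hist1h1d, P2ry10b, Myo1e, Hsph1 and Hist1h2ac. The upper group thus held the chemokine gene Ccl5 and the cytokine gene Il10, and the lower group the chaperone genes Hspa1a and Hsph1.

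**Figure D4:**
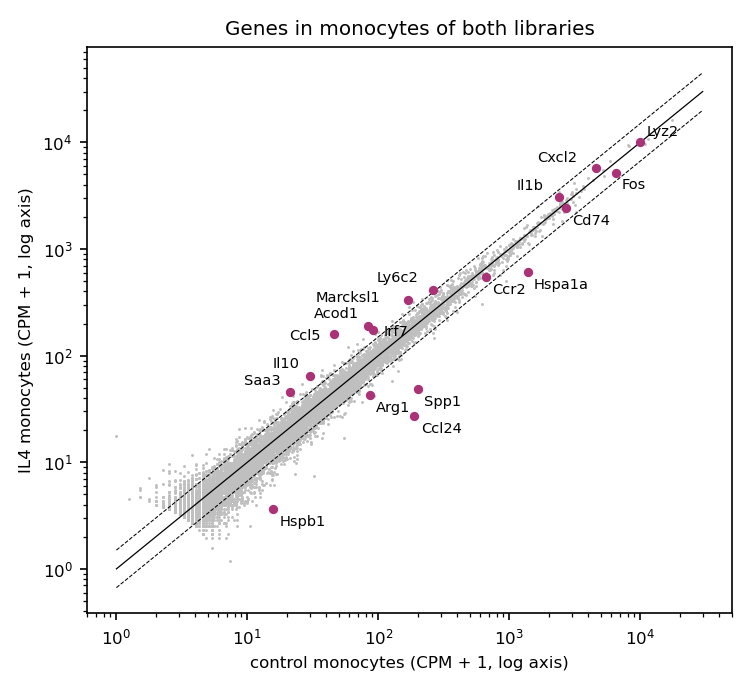
Each of the 10171 genes with at least 20 UMIs, at its CPM plus 1 in control (x) and IL4 monocytes (y), both on log axes, with equality as a solid line and 1.5-fold as dashed lines. Named genes are in purple: Ccl5, Acod1, Il10 and Saa3 lie above the upper dashed line, and Ccl24, Spp1, Arg1, Hspa1a and Hspb1 below the lower one.

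Chemokine genes moved apart. Ccl5, which attracts T cells and monocytes, stood at 45.3 CPM (38.9 to 52.4) in control monocytes and 159 CPM (149 to 170.4) in IL4 monocytes, 3.52-fold (2.99 to 4.16) higher. Its log2 ratio was 1.79, with 1.69 among Xist-only and 2.26 among Y-only cells. In all other kept barcodes Ccl5 stood at 548 and 1049.6 CPM, and in T and NK barcodes at 2477 and 3107 CPM. The monocytes of both libraries lay below those classes, and the IL4 side was the higher one in each. Lymphocyte transcripts were low: of 9 measurable T and NK genes of 15 listed, 6 were higher and 0 lower, beside 3.54% and 6.35% of all genes. The whole list summed to 33.3 CPM in control and 67.1 CPM in IL4 monocytes, against 628 and 880 CPM in other barcodes. Cd3d, Cd3e, Cd3g and Ncr1 were at 0 by the gate. The list median, 0.91, did not hold its size. It was 0.10 with a positive gate of 4, 0.35 with a gate of 10 and 0.25 with gates read at 4000 UMIs. With the C1q sum held at 0 the log2 ratios of the lymphocyte genes Gzma and Nkg7 were -0.51 and -0.21 and that of Ccl5 was 1.30. In that setting 3 genes of the list were measurable and 0 were higher. Gzma had 20 UMIs in all control monocytes, 70% of them in 5 barcodes, so its ratios rest on few UMIs. The part of Ccl5 that came from lymphocytes was not tested.

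Ccl24, which attracts eosinophils and is induced by interleukin 4 in macrophages, went the other way, at 188 CPM (174 to 202) in control monocytes and 25.9 CPM (21.7 to 30.6) in IL4 monocytes, 7.26-fold (6.04 to 8.77) lower. Few cells carried most of it: 5 barcodes held 70.7% of control and 57.2% of IL4 UMIs. Without those 5 barcodes in each library the log2 ratio was -2.23 in place of -2.81. Ccl24 was detected in 13.8% of control and 6.92% of IL4 monocytes, and after thinning in 6.51% (4.33 to 9.32) and 2.73% (1.62 to 4.28), against 0.333% and 0.387% in T and NK barcodes. Both the share of positive cells and the level were thus lower in the IL4 library.

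Of 16 measurable chemokine genes of 18 listed, 3 were higher and 1 lower, beside 3.54% and 6.35% of all genes. Their median log2 ratio was 0.27. By sex the median turned, from 0.57 in Xist-only to -0.29 in Y-only cells. Ccl4, an inflammatory chemokine gene of myeloid cells, stood at 1657 CPM (1617 to 1698) in control monocytes and 2516 CPM (2474 to 2559) in IL4 monocytes. Ccl8, a low gene at 3.81 and 10.9 CPM, turned from a log2 ratio of 1.86 in Xist-only to -0.53 among Y-only cells. Cxcl2, a neutrophil attractant, stood at 4575 and 5733 CPM and Cxcl10, which draws T cells through CXCR3, at 409.6 and 563 CPM. Neither reached 1.5-fold. Of 15 measurable chemoattractant receptor genes, 1 was higher (Fpr1, a formyl peptide receptor) and 0 lower. Ccr2 had a log2 ratio of -0.30, with -0.14 among Xist-only and -0.62 among Y-only cells, where it passed 1.5-fold downwards, while Ptafr, the receptor of platelet-activating factor, had 0.38.

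Type I interferon genes, the antiviral programme, leaned upward in the IL4 library. Of 29 measurable members of 32 listed, 4 were higher and 0 lower, beside 3.54% and 6.35% of all genes. Their median log2 ratio was 0.30, beside -0.05 over all 10171 genes, and 27 of the 29 had a ratio above 0. The share of all genes above 0 is not given here. Irf7, the factor that amplifies interferon production, stood at 90.3 CPM (81.1 to 100.2) in control monocytes and 174 CPM (163 to 185) in IL4 monocytes, 1.92-fold (1.699 to 2.18) higher. Isg15, a ubiquitin-like modifier, was 1.69-fold (1.54 to 1.85) higher at 171 and 288 CPM. Oasl1 and Isg20 were 1.63-fold (1.48 to 1.804) and 1.904-fold (1.47 to 2.48) higher. By sex the median came to 0.33 in Xist-only and 0.13 in Y-only cells over the same genes. Without the limits on the Cxcl1, Ifit2 and Egln3 groups, 12 of 30 members were higher and the median was 0.48 in place of 0.30. That alternative was chosen after seeing the data. Outside the monocytes the summed list was also higher in the IL4 library, at 4787 and 6288 CPM in all other kept barcodes against 4884 and 5969.8 CPM in monocytes. Interferon gamma genes, with 1 higher (Iigp1) and 1 lower (Tgtp1) of 22, had a median of 0.04, split by sex into 0.24 in Xist-only and -0.48 in Y-only cells.

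NF-kB target genes, the acute inflammatory programme, were all on the upper side, although few reached 1.5-fold. Of 25 members 3 were higher and 0 lower, beside 3.54% and 6.35% of all genes. All 25 had a log2 ratio above 0, and the median was 0.37, with 0.37 among Xist-only and 0.55 among Y-only cells. Over all 10171 genes the median was -0.05, and the share of them above 0 is not given here. Il1b, the inflammatory cytokine gene, stood at 2384 CPM (2336 to 2432) in control monocytes and 3090.5 CPM (3044 to 3138) in IL4 monocytes, 1.296-fold (1.26 to 1.33) higher. Nfkbia, the inhibitor that NF-kB induces in feedback, was 1.41-fold (1.38 to 1.45) higher at 2412 and 3409 CPM. Clec4e, which encodes the pattern receptor Mincle, stood at 334 and 509.7 CPM and Marcksl1, a MARCKS-like membrane protein gene, at 167 and 332 CPM. In the other kept barcodes Il1b stood at 1549 and 1976 CPM and Marcksl1 at 254 and 451 CPM. The difference was therefore seen outside the monocytes as well, and no test set the monocytes apart in it.

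Acod1, which makes itaconate in inflamed myeloid cells, stood at 82.4 CPM (73.7 to 91.9) in control monocytes and 188 CPM (176 to 199.6) in IL4 monocytes. It was detected in 26.7% of control and 40.2% of IL4 monocytes, and after thinning in 10.4% (7.601 to 13.7) and 23.6% (20.4 to 27.1), against 4% and 7.35% in T and NK barcodes. More IL4 monocytes thus carried it. Tnip1, an inhibitor of NF-kB signalling, stood at 57.5 and 119 CPM, and Mir155hg, the host gene of an inflammatory microRNA, at 25.2 and 53.2 CPM. After thinning, Tnip1 was detected in 12.3% and 22.0% of monocytes, against 17.7% and 19.3% of T and NK barcodes. Mir155hg was detected in 3.37% and 7.12% of monocytes, against 22.7% and 22.1% of T and NK barcodes. The part of either gene that came from other cells was not tested. Saa3, an acute-phase serum amyloid gene, stood at 20.1 and 44.97 CPM, with log2 ratios of 0.56 among Xist-only and 2.73 among Y-only cells. For Saa3, 5 barcodes held 73.4% of control and 47.9% of IL4 UMIs.

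Among immune regulatory genes, 2 of 29 were higher and 1 was lower, beside 3.54% and 6.35% of all genes, the median being 0.07. Il10, the suppressive cytokine, stood at 28.99 CPM (23.9 to 34.8) in control monocytes and 63.5 CPM (56.9 to 70.7) in IL4 monocytes, 2.19-fold (1.77 to 2.73) higher, and its log2 ratio came to 0.62 in Xist-only cells and to 1.51 in Y-only cells. After thinning, Il10 was detected in 5.06% (3.16 to 7.63) of control and 8.94% (6.87 to 11.4) of IL4 monocytes. T and NK barcodes had 4% (2.08 to 6.88) and 5.61% (3.79 to 7.96). The intervals overlapped in each library, so detection of Il10 in monocytes was not parted from that in T and NK barcodes. The part of Il10 that came from other cells was not tested, and its fold is to be read with that limit. Tnfsf9, the ligand of the T cell costimulator 4-1BB, stood at 24.2 and 42.4 CPM. Cd274, which encodes the checkpoint ligand PD-L1, stood at 140.1 and 189 CPM, and Cd86, a costimulator, at 969.8 and 809.7 CPM. Both stayed under 1.5-fold. Arg1, the arginase of suppressive myeloid cells, was on the lower side, at 84.9 CPM (76.1 to 94.5) in control monocytes and 41.6 CPM (36.3 to 47.4) in IL4 monocytes, 2.04-fold (1.72 to 2.43) lower. Arg1 was detected in 17.4% of control and 9.32% of IL4 monocytes and after thinning in 8.43% (5.94 to 11.5) and 4.697% (3.21 to 6.601), against 1% and 1.55% in T and NK barcodes. The limit on Egln3, Bnip3 and Ero1l had removed more control than IL4 barcodes, and without that limit and the limits on the Cxcl1 and Ifit2 groups the log2 ratio of Arg1 was -1.58 in place of -1.01. With a positive gate of 4 it was -0.30, short of 1.5-fold, and by sex it came to -0.94 in Xist-only and to -2.45 in Y-only cells. Nos2, the inducible nitric oxide synthase, had 3 UMIs in control and 0 in IL4 monocytes, too few to compare.

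Macrophage maturation genes, those gained on the way to a macrophage, mostly stayed under 1.5-fold. Of 29 measurable members 0 were higher and 5 lower (Spp1, Lpl, Gpnmb, Cd81 and Vcam1, the last with 1 UMI in IL4 monocytes), where 6.35% of all genes were lower, and the median log2 ratio was -0.24, with -0.22 among Xist-only and -0.24 among Y-only cells. Gpnmb and Cd81 lost the call in some settings, at a log2 ratio of -0.10 for Gpnmb without the gates on the Cxcl1, Ifit2 and Egln3 groups and of -0.09 for Cd81 with a positive gate of 10. Spp1, the secreted osteopontin gene, stood at 199.9 CPM (186 to 214) in control monocytes and 47.6 CPM (41.9 to 53.8) in IL4 monocytes, beside 96.8 and 126 CPM in T and NK barcodes. For Spp1, 5 barcodes held 52.5% of control and 37.8% of IL4 UMIs, and without them the log2 ratio was -1.65. Spp1 was detected in 21.9% of control and 12.9% of IL4 monocytes, and after thinning in 9.398% (6.77 to 12.6) and 4.85% (3.34 to 6.78), against 6% and 6.38% in T and NK barcodes. The IL4 monocytes were thus at or below T and NK barcodes in level and share. The control share overlapped the interval of T and NK barcodes (3.59 to 9.32), so no fold is read for Spp1. Lpl, the lipase that releases fatty acids, stood at 74.2 and 35.8 CPM. Mrc1 and Apoe differed less, at 155 and 131 CPM and 796 and 748 CPM.

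Of 23 measurable interleukin 4 response genes of 26 listed, 1 was higher and 3 were lower, beside 3.54% and 6.35% of all genes. The median was -0.16. The higher one was the low gene Retnla, and the lower ones were Ccl24, Arg1 and Flt1, a receptor for vascular growth factors, which stood at 22.6 and 12.6 CPM. Il4ra, the receptor chain that binds interleukin 4, stood at 113 CPM (102 to 124) in control monocytes and 134 CPM (124 to 144) in IL4 monocytes, 1.19-fold (1.05 to 1.34) higher and under the threshold. Egr2, a transcription factor that interleukin 4 induces in macrophages, stood at 60.5 and 85.8 CPM, and Chil3, itself a response gene and a gate gene, at 219.9 and 260.5 CPM. The median turned to 0.08 with gates read on barcodes thinned to 4000 UMIs, and it held no clear direction.

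MHC class II genes leaned downward without reaching 1.5-fold: 0 of 11 were higher and 0 lower, the median being -0.22. H2-Ab1 stood at 941 CPM (910.5 to 971) in control monocytes and 811 CPM (787 to 836) in IL4 monocytes and Cd74 at 2725 and 2428 CPM. The log2 ratio of H2-Ab1 came to -0.01 in Xist-only and to -0.56 in Y-only cells, and the list median was -0.05 and -0.44. Ciita stood at 44.5 and 31.5 CPM. MHC class I genes, which serve display to CD8 T cells, had 0 of 18 higher and 0 lower, the median being 0.12, and H2-K1 stood at 719.8 and 803 CPM.

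The genes of the circulating monocyte were nearly level between the libraries. Of 30, 3 were higher and 0 lower, beside 3.54% and 6.35% of all genes, the median being 0.05. The 3 were Ly6c2, Ly6a and Clec4e. Ly6c2 was 1.58-fold (1.47 to 1.704) higher, with log2 ratios of 0.68 among Xist-only and 0.24 among Y-only cells, and it was also higher in the other kept barcodes of the IL4 library, at 116 and 211 CPM. Ly6a stood at 63.3 and 109 CPM, with 0.94 among Xist-only and -0.55 among Y-only cells. Its direction in Y-only cells was thus the reverse of that in Xist-only cells. Fn1, fibronectin, stood at 1154 and 856 CPM, and Thbs1, thrombospondin 1, at 1630.1 and 1754 CPM. Both are matrix genes of monocytes and neither reached 1.5-fold. Csf1r, the receptor of the main monocyte growth factor, stood at 242 and 269 CPM.

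Receptors, sensors and transcription factors also differed little, where 3.54% of all genes were higher and 6.35% lower. Of 24 cytokine and growth factor receptor genes 0 were higher and 0 lower, the median being 0.16, and Tnfrsf1b, a receptor of tumour necrosis factor, stood at 151 and 208 CPM. Of 29 innate sensor genes of 31 listed 1, Clec4e, was higher and 0 were lower. Cd14, the coreceptor for bacterial lipopolysaccharide, stood at 634 and 855 CPM and Nlrp3, an inflammasome sensor, at 334 and 457 CPM. Of 29 lineage transcription factor genes 1 was higher (Zbtb46) and 1 lower, the latter being Id1, an inhibitor of DNA binding, at 58.7 and 37.9 CPM. Klf4, a factor of the monocyte lineage, stood at 546 and 668 CPM, and Pou2f2, counted among the non-classical genes, at 76.3 and 119 CPM. Of 27 adhesion and matrix genes 0 were higher and 1, the integrin gene Itgax, was lower at 13.98 and 6.93 CPM. Of 15 Fc and complement genes 1 was higher (C4b) and 1 lower (Itgax again).

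Heat-shock and dissociation stress genes had the lowest median of the lists over all monocytes. In Y-only cells several lists were lower, hypoxia genes among them. Hypoxia genes were also lower without the gates on the Cxcl1, Ifit2 and Egln3 groups. Macrophage genes were lower in Xist-only cells and with the C1q sum at 0, and SMYD genes with a positive gate of 10. Of 21 heat-shock and stress genes, 0 were higher and 5 lower (Hspa1a, Hspa1b, Hspb1, Hsp90aa1 and Hsph1), beside 3.54% and 6.35% of all genes. Their median was -0.29. Hspa1a, the inducible HSP70 chaperone, stood at 1386 CPM (1349.5 to 1423) in control monocytes and 605 CPM (585 to 627) in IL4 monocytes, and Hspa1b, its near-identical copy, at 621 and 302 CPM, where the counting may split reads between the copies. Hspa1a had log2 ratios of -1.23 among Xist-only and -1.17 among Y-only cells. In the other kept barcodes Hspa1a stood at 1624 and 881 CPM. The difference was also seen outside the monocytes, and the part that handling of the tissue had in it was not tested. Fos, an immediate early gene that dissociation also raises, stood at 6492 and 5187 CPM.

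Of 23 hypoxia and glycolysis genes 0 were higher and 1, Pdk1, was lower, beside 3.54% and 6.35% of all genes. The median was -0.13. By sex it came to 0.03 in Xist-only and -0.61 in Y-only cells. Gapdh stood at 1394 and 1132 CPM. Without the limits on the Egln3, Cxcl1 and Ifit2 groups 8 of 24 were lower and the median was -0.47 in place of -0.13. S100 and annexin genes had 1 of 15 higher and 1 lower (Anxa3). S100a8, a calcium-binding alarmin of neutrophils and monocytes, stood at 11.2 and 23.8 CPM, but 5 barcodes held 31.8% of control and 65.4% of IL4 UMIs and without them its log2 ratio was 0.10. Of 10 measurable cell cycle genes of 20 listed 2, Mki67 and Top2a, were higher and 1, Tyms, was lower, all at low levels. Smyd5, the histone methyltransferase gene, stood at 8.39 CPM (5.78 to 11.8) in control monocytes and 7.31 CPM (5.197 to 9.99) in IL4 monocytes, and the 3 measurable SMYD genes of 5 listed had 0 higher and 0 lower.

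Transcripts of other cells were present at low levels beside the lymphocyte genes given with Ccl5. Neutrophil genes summed to 137 CPM in control and 180 CPM in IL4 monocytes, with Ly6g and Cxcr1 at 0 in both, and 1 of 7 measurable members of 11 listed, S100a8, was higher. Dendritic genes summed to 354 and 403 CPM, with Cd207 at 0, and 1 of 8 measurable members, Zbtb46, was higher. B and plasma cell genes summed to 46.5 and 48.0 CPM, with Pax5 at 0. Pigment cell genes summed to 124 CPM in both, mostly from Mitf, which macrophages also express, with Tyr and Sox10 at 0. Mast cell, basophil and eosinophil genes summed to 2.03 and 0.562 CPM, and red cell and stromal genes to 3.31 and 2.998 CPM.

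The 20 genes furthest up or down were chosen for their ratios, and filters on low counts or another pseudocount cannot turn a direction. They kept it in the settings that changed which cells entered by more than a few (gates at 4 and at 10, gates read at 4000 UMIs, Xist-only, Y-only, C1q sum at 0, without the 3 gates on Cxcl1, Ifit2 and Egln3 groups, and without the 5 top barcodes), while the size of some rested on few cells or on 1 sex. Within Xist-only barcodes 18 of the 20 still passed 1.5-fold, and within Y-only barcodes, of which the IL4 library had 55, 16 did. In all other kept barcodes 19 of the 20 had the same direction, often with a smaller ratio. Il10 stood there at 38.8 and 107 CPM, Ccl24 at 120.3 and 44.5 CPM and Myo1e at 140.5 and 123 CPM in the control and IL4 libraries, and in C1q macrophages Myo1e stood at 169 and 172 CPM. The exception was S100a8, at 89.4 and 32.8 CPM in all other barcodes. Kcnn4, a potassium channel gene, stood at 28.7 and 61.1 CPM and had log2 ratios of 1.55 and 0.33 in Xist-only and Y-only barcodes. After thinning, Kcnn4 was detected in 2.65% and 10.3% of monocytes, against 9.67% and 6.96% of T and NK barcodes. Myo1e, an unconventional myosin gene, stood at 91.8 and 41.2 CPM with -0.49 and -1.31. The histone genes Hist1h1d and Hist1h2ac followed, with 21.6 and 9.18 CPM for the first and 29.5 and 13.7 CPM for the other. Tmtc2, Lonrf3, Lrif1 and P2ry10b completed the group, at levels from 8.81 to 40.1 CPM. After thinning, Tmtc2 was detected in 4.10% and 4.85% of monocytes, against 5.67% and 5.61% of T and NK barcodes. The part of Kcnn4 and Tmtc2 that came from other cells was not tested.

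**Figure D5:**
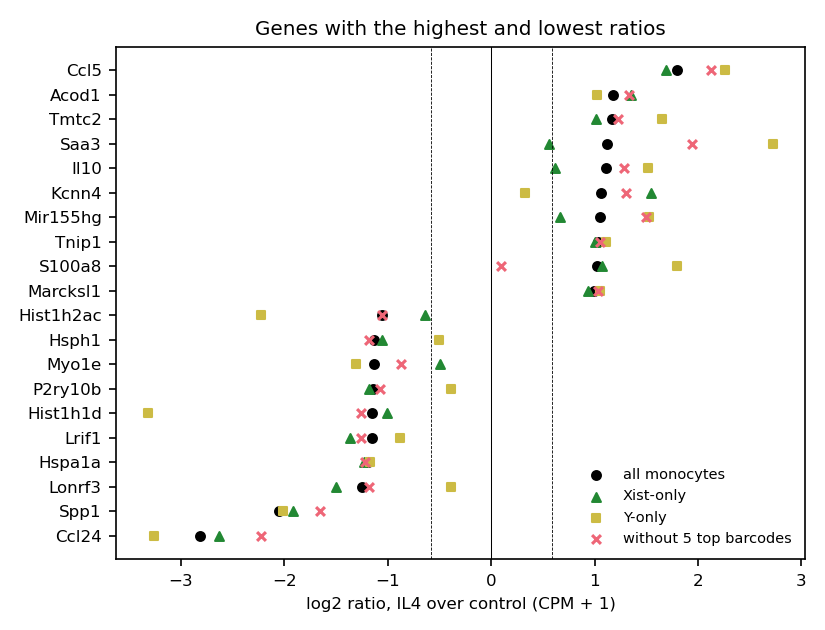
Log2 ratio of IL4 over control (CPM plus 1) for the 10 genes furthest up and the 10 furthest down, in all monocytes (black circles), Xist-only barcodes (green triangles), Y-only barcodes (yellow squares) and without the 5 barcodes with most UMIs of the gene in each library (red crosses). Dashed lines mark 1.5-fold. Every point of a gene lies on the same side of 0, and S100a8 without its 5 barcodes, at 0.10, lies nearest to 0.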

How the data were processed

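Single-cell libraries of sorted CD45+ tumour cells, 1 per group, were deposited as raw counts of UMIs, which the authors made with Cell Ranger 7.2.0 on mm10, per the submitters' processing notes. Which annotation they counted against is not known, and gene coordinates here are from GENCODE vM21.

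A barcode needed 500 UMIs, 250 genes and a mitochondrial share of 10% or less. In the control library 8937 of 8994 barcodes met this and in the IL4 library 13762 of 13873. The gates were applied to raw counts. No doublet caller was run. The exclusion limits on genes of lymphocytes, macrophages, neutrophils, non-classical monocytes and dendritic cells were the only guard against mixed barcodes. The alternative without barcodes above the 95th percentile of UMIs removed 1 monocyte and tests nothing about doublets. Counts were summed over the gated barcodes of each library and scaled to CPM. Intervals were exact Poisson for CPM, Clopper-Pearson for shares, Newcombe for the difference of shares and conditional binomial for folds, all at 95% and all covering counting error only. Genes with at least 20 UMIs in monocytes were compared.

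The members and the 30 gene lists were chosen with earlier results of these data known. The genes named are the 10 highest and 10 lowest ratios among genes with at least 50 UMIs and 20 CPM (gate, mitochondrial, ribosomal, predicted and sex-linked marker genes left out), up to 4 members per list with at least 50 UMIs by absolute ratio and 2 by level, the 15 highest against other barcodes at 100 CPM or more (same genes left out), and the gate and marker genes. Genes named as the members of a list past 1.5-fold outside that rule were chosen after their values were seen. The procedure was run on simulated counts in which set genes were changed and counting noise alone was added. Those counts held no variation between cells, mice or libraries. That run therefore bears on counting error only and not on the difference between the treatments. Alternatives changed the gate, the depth at which it was read, the mitochondrial limit, the sex of the cells, the scaling, the pseudocount and the filter on low counts. Python 3.11.15, numpy 2.4.6, scipy 1.17.1, pandas 2.3.3 and matplotlib 3.10.9 were used.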

Additional observations from a re-analysis of the deposited data

How the results depend on the processing

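No paired analysis was possible because each group had 1 library, and for the same reason no replicate could be left out. Of 17 other settings, 15 were planned and 2 were chosen after seeing the data (without the Cxcl1, Ifit2 and Egln3 gates, and without the 5 barcodes with most UMIs of a gene). The difference in the share of monocytes was -0.64 points in Y-only barcodes and -0.78 points (-1.52 to -0.05) without those gates, against 0.13. The count of genes at least 1.5-fold higher in IL4 monocytes, 360, was 673 in Y-only barcodes, 118 with a pseudocount of 5 CPM, 125 with at least 100 UMIs and 895 with no filter. The count of lower genes, 646, was 185, 183 and 1373 under the last 3 of these. List members past 1.5-fold, 42 in all, numbered 87 in Y-only barcodes, 71 without the gates and 25 with at least 100 UMIs. Direction reversed for Gzma with a positive gate of 4 (-0.11) and with the C1q sum at 0 (-0.51), for Nkg7 with gates read at 4000 UMIs (-0.31) and with the C1q sum at 0 (-0.21), for Hspb1 with gates read at 4000 UMIs (0.13), for Ccl8 with a positive gate of 10 (-0.65) and in Y-only barcodes (-0.53), and for Ly6a in Y-only barcodes (-0.55). The cause was not tested. Depth limits genes near 20 UMIs, and Y-only values rest on 55 IL4 cells.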
